A study of Triticum polonicum with 8 samples.

Results

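The comparison described here is that of 1 root library of cadmium-treated seedlings (N0_Cd) with 1 library of seedlings given no added metal (N0), which are 2 of the 8 libraries of the series. Both were chosen by their treatment labels. The plants were dwarf Polish wheat, Triticum polonicum, a tetraploid species with A and B subgenomes. Treatment lasted 1 week, and roots were collected from plants that were 4 weeks old. N0_Cd seedlings received 80 µM CdCl2 and N0 seedlings none, and both grew with nitrate salts at the basal level (4 mM for calcium, 5 mM for potassium) and with no zinc beyond the 5 µM of the basal medium. The other libraries used below are N2_Cd (80 µM CdCl2) and N2 (no added metal) at the raised supply (8 mM of the calcium salt, 10 mM of the potassium salt), N0_Cd_Zn (80 µM Cd with 500 µM Zn) and N0_Zn (500 µM Zn) at the basal supply, and N2_Cd_Zn (80 µM Cd with 500 µM Zn) and N2_Zn (500 µM Zn) at the raised supply. The raised supply also carried more nitrate, so that calcium, potassium and nitrate cannot be told apart in any contrast with N2 libraries. The labels state 3 biological replicates per treatment but the tables hold 1 column for each, so no value below has a replicate check and no test was made between N0_Cd and N0. Root identity could not be checked against marker genes, because the files do not pair gene identifiers with names.

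Cadmium is a toxic metal with no known role in higher plants. It enters roots mainly through carriers for iron, zinc, manganese and calcium, and competes with these nutrients for uptake and for binding sites in proteins. Plant cells limit it by binding it to thiol-rich peptides, chiefly phytochelatins made from glutathione, and by storing it in root vacuoles, while surplus cadmium goes with oxidative stress and poor root growth. Which of these systems the genes below belong to cannot be read from the files, so genes are described by their position code, level, size of change and behaviour in the other libraries.

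The libraries compared were of like depth. N0_Cd had 24999115 counts and N0 had 24184415, and reads fell on 76490 genes in N0_Cd and 77001 in N0 of the 124856 genes in the table. The 100 most abundant genes held 9.47% of the counts in N0_Cd against 11.3% in N0, and 3604 genes together held 50% of the counts in N0_Cd against 3143 genes in N0. At the raised supply this last number was 3721 in N2_Cd against 4250 in N2, the other way round, and N0_Zn had the lowest of the 8 libraries, 2544.

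Levels are given as CPM, the read count of a gene scaled to a common library total, after TMM scaling, which corrects that total so that a few abundant genes do not shift all others. Log2 ratios had a small prior count added on both sides. Genes with at least 5 CPM in N0_Cd or N0 were compared, 32686 in all, and they held 95.4% of the counts in N0_Cd and 95.4% in N0. Another 49847 genes had reads but stayed under this minimum, and 42323 had no read in either library. A change was described as such at 2-fold or more.

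Most genes stayed within 2-fold under Cd, and more were higher than lower. In N0_Cd, 3950 genes (12.1% of those compared) were higher and 2852 (8.73%) were lower than in N0, and 25884 (79.2%) were neither. The median log2 ratio of N0_Cd over N0 was -0.01, and the central 50% of genes lay between -0.42 and 0.45. With reads as the only source of error, no gene in either list had a 95% interval of its fold that included 1. The minimum of 5 CPM and the 2-fold threshold together fix that outcome, so it is no check of the lists. For 2934 of the higher and 1971 of the lower genes the interval lay wholly beyond 2-fold. The threshold cut through a dense part of the distribution, since 430 genes lay within 0.1 log2 inside it and 478 within 0.1 outside it on the higher side, and 386 inside and 470 outside on the lower side.

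**Figure D1:**
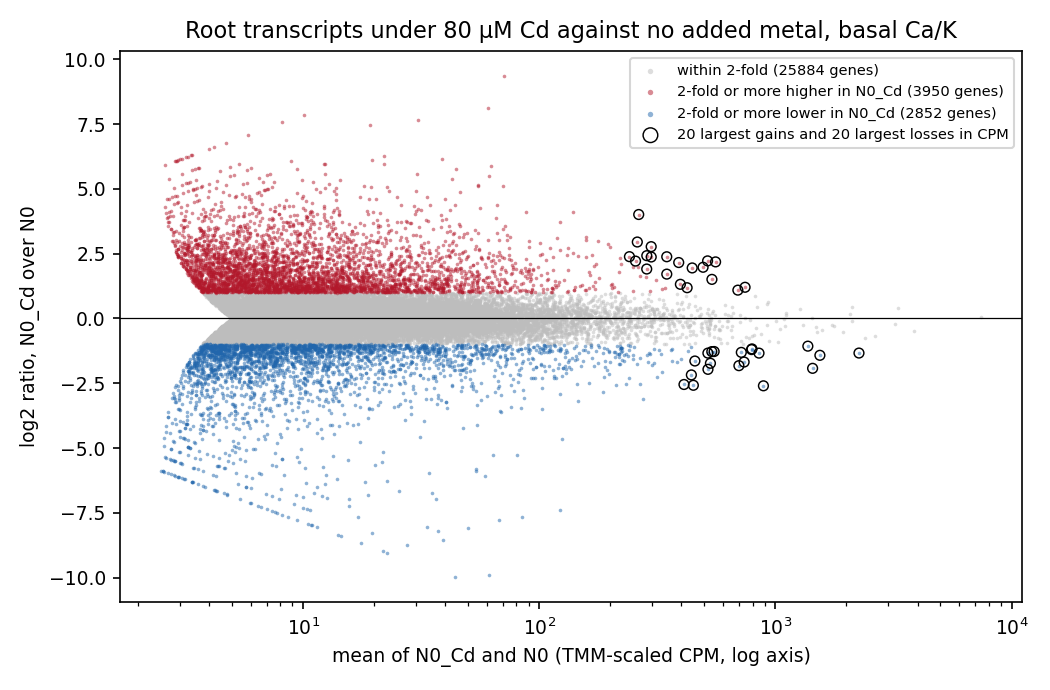
Each point is 1 of the 32686 genes compared, placed by its mean of N0_Cd and N0 in TMM-scaled CPM (log axis) and its log2 ratio of N0_Cd over N0; coloured points are the 3950 higher and 2852 lower genes, and open circles the 20 largest gains and 20 largest losses in CPM. At 100 to 300 CPM, 82 genes are higher and 134 lower.

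The balance of higher and lower genes turned with the size of the change. Between 2-fold and 4-fold, 2451 genes were higher and 1942 lower, and between 4-fold and 8-fold 943 were higher and 485 lower. At 16-fold or more the lower genes were the more numerous, with 216 higher and 248 lower, and at 32-fold or more 83 were higher and 162 lower. This turn at 32-fold kept its direction under each scaling of counts, with 83 to 86 genes higher and 153 to 162 lower. With a minimum of 20 CPM in place of 5 CPM the order at 16-fold turned, to 74 higher and 68 lower, while at 32-fold 29 were higher and 52 lower. On log2(FPKM + 1), a scale that compresses ratios of low genes, 10 higher and 11 lower genes reached 32-fold.

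The balance also turned with transcript level. Among genes with a mean under 10 CPM, 17.6% were higher and 12.5% lower, and between 30 and 100 CPM 7.82% were higher and 5.95% lower. Between 100 and 300 CPM the order was the other way, with 6.47% higher and 10.6% lower, or 82 and 134 of 1267 genes. Of the 252 genes between 300 and 1000 CPM, 15 were higher and 30 lower. Of the 29 genes above 1000 CPM, 0 were higher and 4 lower.

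The scaling ties the summed gain and the summed loss together, so their near balance is not a result. The higher genes together held 119563 CPM in N0_Cd and 35038 in N0, or 11.7% of all counts in N0_Cd and 3.35% in N0. The lower genes held 41426 CPM in N0_Cd and 127194 in N0, or 4.07% of counts in N0_Cd and 12.2% in N0. The median gene of the higher list had 13.5 CPM in N0_Cd and 3.72 in N0, and that of the lower list 3.95 in N0_Cd and 13.6 in N0.

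The summed loss was more concentrated in a few abundant transcripts than the summed gain. The 20 genes with the largest loss in CPM made up 18.9% of the summed loss over the lower list, and the 20 with the largest gain 10.9% of the summed gain over the higher list. The 20 gains had between 404 and 1037 CPM in N0_Cd (median 573) and between 30.7 and 450 CPM in N0 (median 152). Their ratios ran from 2.13-fold to 16.2-fold, with 11 of 20 at 4-fold or more. The 20 losses had between 120 and 1282 CPM in N0_Cd (median 318) and between 691 and 3236 CPM in N0 (median 1057). Their ratios ran from 2.10-fold to 6.06-fold lower, and 4 of 20 reached 4-fold. The gains came in equal number from both subgenomes, with 10 genes of A and 10 of B. The losses were 9 of A, 8 of B, 1 with a D code, 1 with the code U and 1 without an arm code. All genes compared included 13335 of A and 13671 of B, also near equal.

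The largest gain belonged to TRIAE_CS42_4BS_TGACv1_327858_AA1076520, a gene model of 787 bp on the short arm of chromosome 4B. It had 914 CPM in N0_Cd against 201 in N0 (22431 and 4661 counts), which is 4.54-fold higher with a 95% counting interval from 4.40 to 4.68. At the raised supply it had 458 CPM in N2_Cd against 623 in N2. With Zn it had 277 CPM in N0_Cd_Zn against 540 in N0_Zn, and 1669 in N2_Cd_Zn against 778 in N2_Zn. N0 was thus its lowest library and N2_Cd_Zn its highest, and Cd went with a higher level in 2 of the 4 matched pairs.

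TRIAE_CS42_4AL_TGACv1_290009_AA0980380, a model of 670 bp on the long arm of 4A, had the second largest gain and a like pattern: N0 was again its lowest library and N2_Cd_Zn its highest. It had 850 CPM in N0_Cd against 182 in N0 (20849 and 4216 counts), or 4.66-fold higher (4.51 to 4.82). It had 513 CPM in N2_Cd against 790 in N2, 360 in N0_Cd_Zn against 661 in N0_Zn, and 2069 in N2_Cd_Zn against 1076 in N2_Zn. Per length, on the deposited FPKM scale, which is not TMM-scaled, the models on 4BS and 4AL were close in level, with 1140 and 1245 FPKM in N0_Cd and 245 and 260 FPKM in N0. Whether they are A and B copies of 1 gene is not stated in the files, and whether reads were shared between them was not tested.

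The largest loss was of TRIAE_CS42_4BS_TGACv1_327881_AA1077600, a model of 1776 bp that was the fifth most abundant gene of N0 by counts. It had 1282 CPM in N0_Cd against 3236 in N0 (31462 and 74866 counts), or 2.52-fold lower (2.49 to 2.56). At the raised supply it was lower than in N0_Cd and N0, with 461 CPM in N2_Cd against 378 in N2. It had 988 CPM in N0_Cd_Zn against 3963 in N0_Zn, and 1158 in N2_Cd_Zn against 631 in N2_Zn. N0_Zn and N0, the basal libraries without Cd, were its highest, and N0_Cd came next.

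TRIAE_CS42_4BL_TGACv1_320729_AA1047310, a model of 1161 bp on the long arm of 4B, showed the second largest loss and another pattern. It had 599 CPM in N0_Cd against 2276 in N0 (14703 and 52652 counts), or 3.80-fold lower (3.73 to 3.87). It had 807 CPM in N2_Cd against 680 in N2, 1054 in N0_Cd_Zn against 874 in N0_Zn, and 606 in N2_Cd_Zn against 1405 in N2_Zn. N0 was its highest library.

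At the raised supply the 20 losses mostly stood below their levels in N0_Cd and N0, with or without Cd. Their median was 318 CPM in N0_Cd and 1057 in N0, but 105 in N2_Cd and 119 in N2, and all but 1 of the 20 were below their N0 level in N2. The choice of the 20 by their loss from N0 fixes part of that difference from N0. In N0_Zn, on the basal supply, their median was 1363 CPM and 13 of 20 were above N0. At the raised supply 0 of the 20 were 2-fold higher and 3 were 2-fold lower in N2_Cd than in N2, with a median log2 ratio of 0.01. Of the 20 gains, 7 were 2-fold or more higher and 1 was lower in N2_Cd against N2, with a median log2 ratio of 0.61. Over all genes compared at the raised supply, 12.8% were higher and 7.41% lower in N2_Cd. With 20 genes in each set, counts of 0, 1 and 3 are too few to tell from these shares. For 4 of the 20 gains, on arms 4AS, 3AL, 3B and 2BL, N0_Cd stood more than 2-fold above every other library. The gene on 4AS had 636 CPM in N0_Cd and 143 in N0, and between 64.3 and 198 in the other 6 libraries. The gene on 3AL had 581 CPM in N0_Cd and 112 in N0, and between 4.64 and 182 in the others. The gene on 3B had 461 CPM in N0_Cd and 59.6 in N0, and between 4.18 and 81.9 elsewhere. The gene on 2BL had 531 CPM in N0_Cd and 162 in N0, and between 109 and 256 elsewhere. These 4 were singled out after their values were seen.

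**Figure D2:**
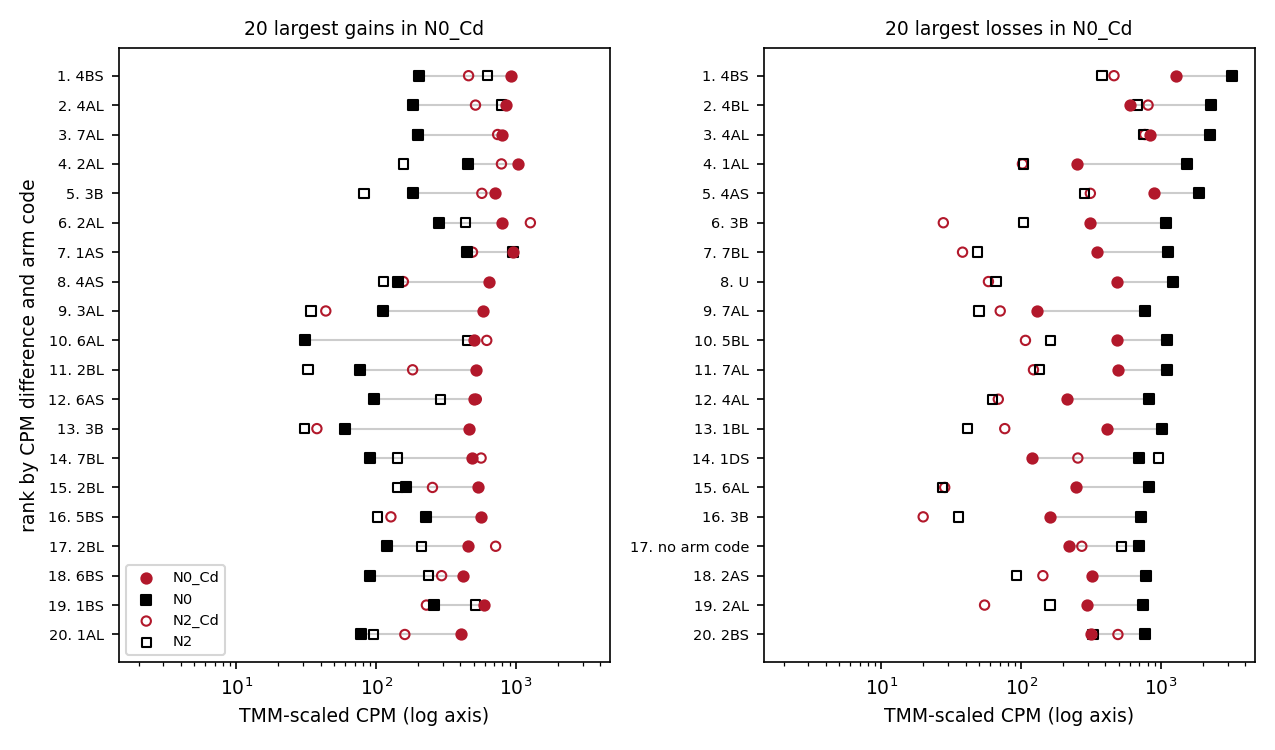
Levels in TMM-scaled CPM (log axis) of the 20 largest gains (left) and 20 largest losses (right), labelled by rank and arm code; filled red circles are N0_Cd, filled black squares N0, open red circles N2_Cd and open black squares N2. Among the losses, N2_Cd and N2 mostly lie together to the left of both basal libraries, with medians of 105 and 119 CPM.

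The genes with the largest ratios were of modest level, and most of the higher ones had reads in N2_Cd as well. The 83 genes at 32-fold or more higher had a median of 11.7 CPM in N0_Cd (5.22 to 142) against 0.130 in N0. Their medians were 7.28 CPM in N2_Cd against 0.917 in N2, 0.444 in N0_Cd_Zn against 0.320 in N0_Zn, and 3.24 in N2_Cd_Zn against 1.11 in N2_Zn. N2_Cd, which had no part in choosing them, had at least 1 CPM of 81 of the 83, against 38 in N2. The share of all genes compared that reached 1 CPM in either library is not given here, so these counts have no background. These genes included 43 of A, 27 of B, 4 with a D code, 4 with the code U and 5 without an arm code. Over all 32686 genes compared the numbers were 13335, 13671, 823, 1158 and 3699 in the same order.

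The 162 genes at 32-fold or more lower had medians under 1 CPM in N2_Cd, N0_Zn, N2_Zn and N2_Cd_Zn, but not in N0_Cd_Zn. Their low level in N0_Cd is fixed by the choice. They had a median of 0.0611 CPM in N0_Cd against 12.1 in N0 (5.01 to 243), and of 0.0921 in N2_Cd against 11.1 in N2. Their median was 18.1 CPM in N0_Cd_Zn against 0.160 in N0_Zn, and 0.0954 in N2_Cd_Zn against 0.232 in N2_Zn. At least 1 CPM was reached by 18 of the 162 in N2_Cd against 147 in N2, and by 152 in N0_Cd_Zn against 27 in N0_Zn. The choice of genes used N0_Cd and N0 and none of the other 6 libraries. How many of all genes compared reached 1 CPM in each library is not given here, so the counts at 1 CPM have no background.

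**Figure D3:**
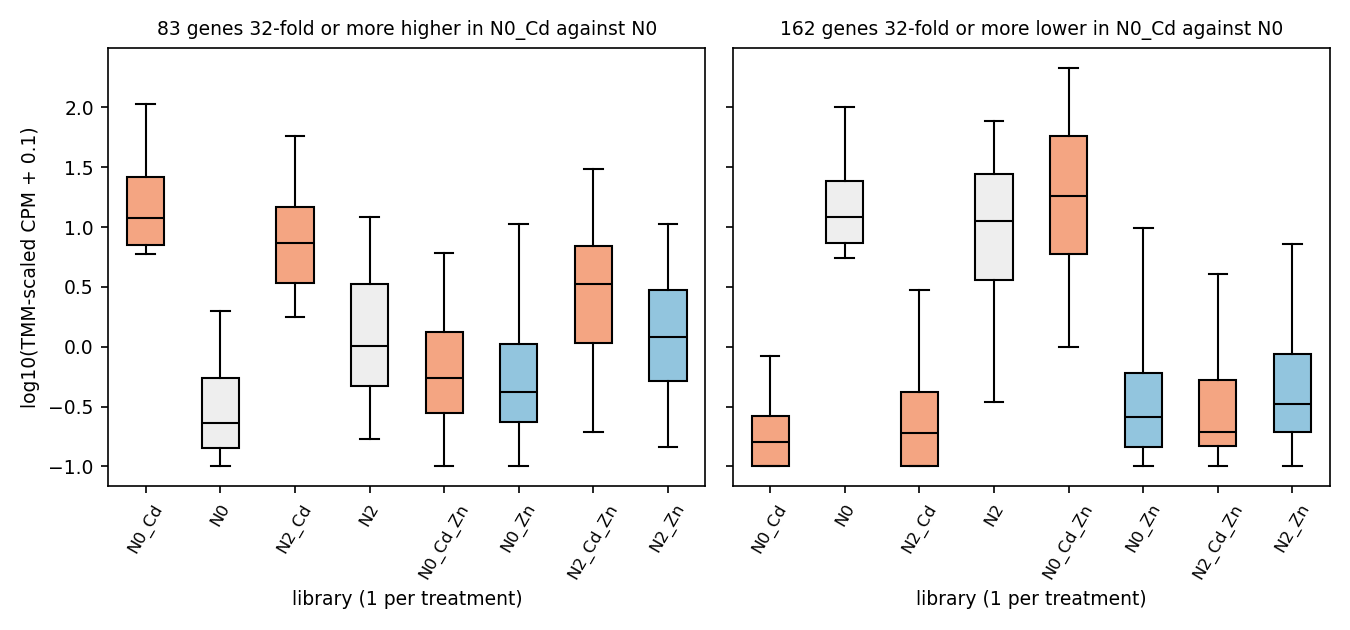
Boxes show the median and quartiles, and whiskers the 5th to 95th percentiles, of log10(TMM-scaled CPM + 0.1) over the 83 genes 32-fold or more higher (left) and the 162 genes 32-fold or more lower (right) in N0_Cd against N0, in each of the 8 libraries. Orange marks libraries with Cd, blue those with Zn alone and grey those without added metal; the lower genes are high in N0_Cd_Zn, N0 and N2, with medians of 18.1, 12.1 and 11.1 CPM.

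Few of the genes compared had no read at all on one side. There were 17 genes with between 128 and 493 counts in N0_Cd (median 159) and 0 counts in N0. There were 50 genes with 0 counts in N0_Cd and between 116 and 2037 counts in N0 (median 206.5). A count of 0 allows up to 0.122 CPM in N0_Cd and 0.130 CPM in N0, taking 3 counts as the limit and counting error only. Of the 50 genes, 27 also had 0 counts in N2_Cd, 16 in N0_Zn and 15 in N2_Cd_Zn, while 0 had none in N2 and 1 had none in N0_Cd_Zn. The share of all genes compared with 0 counts in each library is not given here, so these counts have no background. Of the 17, 6 were 2-fold higher and 1 was lower in N2_Cd against N2, where 12.8% of all genes compared were higher and 7.41% lower.

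Cd at the raised supply is the nearest repeat of the comparison and shares no library with it. In N2_Cd, 12.8% of 33269 genes stood at least 2-fold above N2 and 7.41% at least 2-fold below it. Of the 3950 genes higher at the basal supply, 1644 (41.6%) were also higher in N2_Cd against N2, 136 (3.44%) were lower, 1606 were neither and 564 were under the minimum. These 1644 were 38.6% of all genes higher in N2_Cd. Of the 2852 lower genes, 840 (29.5%) were also lower in N2_Cd, 109 (3.82%) were higher, 943 were neither and 960 were under the minimum, and the 840 were 34.1% of all genes lower in N2_Cd. These shares were above the backgrounds of 12.8% and 7.41%, with genes under the minimum kept in the lists. The median log2 ratio of N2_Cd over N2 was 0.92 for the higher list (central 50% from 0.27 to 1.74), -0.76 for the lower list (-1.81 to -0.11) and 0.07 over all genes compared. By library totals alone the shares in common came to 35.8% of the higher and 35.8% of the lower list.

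Recurrence went with the size and level of the basal change differently for higher and lower genes. Of the genes 2-fold to 4-fold higher, 35.3% were 2-fold higher at the raised supply, and of those at 32-fold or more 56.6%, but between 16-fold and 32-fold 39.8%. Of the genes 2-fold to 4-fold lower, 21.8% were lower at the raised supply, and of those at 32-fold or more 66.0%, with 50.3% at 8-fold to 16-fold and 44.2% at 16-fold to 32-fold. By level, the lower genes recurred less when abundant, with 30.7% of 1546 genes under a mean of 10 CPM and 14.2% of 134 genes between 100 and 300 CPM. The 134 genes had medians of 75.5 CPM in N0_Cd against 223 in N0, but 25.1 in N2_Cd against 29.4 in N2. For the higher genes the share was 40.0% of 2183 genes under 10 CPM, 54.9% of 82 genes between 100 and 300 CPM and 33.3% of 15 genes between 300 and 1000 CPM. The 82 genes had medians of 228 CPM in N0_Cd against 69.7 in N0, and 175 in N2_Cd against 65.5 in N2. The share of all genes of a like level that were 2-fold apart in N2_Cd against N2 is not given here. The shares by level thus have no background and are not read as a trait of either list.

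**Figure D4:**
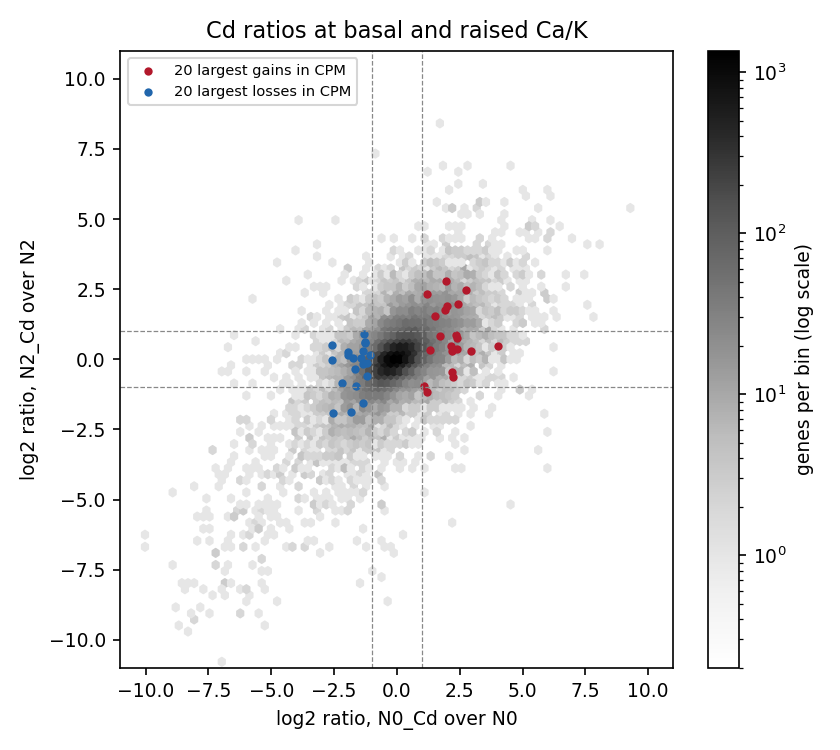
Log2 ratio of N2_Cd over N2 against that of N0_Cd over N0 for the 32686 genes compared at the basal supply; shading gives the number of genes per bin on a log scale, dashed lines mark 2-fold, red points the 20 largest gains and blue points the 20 largest losses in CPM. The gains have a median of 0.61 on the vertical axis and the losses 0.01.

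In the pairs that differ in Cd with Zn present, the lists behaved differently at the basal and the raised supply. In N0_Cd_Zn against N0_Zn, where 21.1% of 33924 genes were higher and 23.1% lower, 524 (13.3%) of the 3950 basal higher genes were higher and 1238 (31.3%) lower. Of the 2852 basal lower genes, 760 (26.6%) were lower there and 845 (29.6%) higher. In this pair 2514 genes of the higher list and 2475 of the lower list were compared, and 1436 and 377 were under the minimum. Genes under the minimum are kept in the list shares but not in the backgrounds, so the 2 are not on a like base. The median log2 ratio was -0.91 for the higher list and -0.05 for the lower list, against -0.16 over all genes. In N2_Cd_Zn against N2_Zn, where 6.1% of 31873 genes were higher and 8.44% lower, 545 (13.8%) of the higher list were higher and 342 (8.66%) lower. Of the lower list 225 (7.89%) were lower there and 235 (8.24%) higher. Here 869 of the higher list and 1254 of the lower list were under the minimum and likewise kept in the shares. The median log2 ratio in this pair was 0.26 for the higher list and 0.23 for the lower list, against -0.02 over all genes. Both medians thus lay above that of all genes by a like amount and do not set the lists apart. Neither pair shares a library with N0_Cd and N0.

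Zinc without Cd at the raised supply, likewise has no library in common with N0_Cd and N0, though N2 also serves as the control of N2_Cd. In N2_Zn against N2, 9.77% of 32471 genes were higher and 7.09% lower. Of the basal higher list 836 (21.2%) were higher there and 240 (6.08%) lower, with a median log2 ratio of 0.37. Of the lower list 676 (23.7%) were lower and 212 (7.43%) higher, with a median of -0.43, against 0.07 over all genes compared. Under the minimum here, but kept in these shares, were 1043 of the higher list and 910 of the lower list. N0_Zn shares N0 as its control with N0_Cd, so only levels are given for it: the higher list had a median of 13.5 CPM in N0_Cd, 5.40 in N0_Zn and 3.72 in N0, and the lower list 3.95 in N0_Cd, 7.48 in N0_Zn and 13.6 in N0.

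N0_Cd was the library of highest level for 1601 of the 3950 higher genes, or 40.5%, and N2_Cd for 1006, or 25.5%. Over all 32686 genes these libraries were highest for 10.1% and 10.4%. The choice of genes high in N0_Cd fixes part of the first share. It also bars N0, which was highest for 0 of the higher genes against 11.8% of all genes, so the second share is not wholly free of the choice. Of the lower genes, 1274 (44.7%) were highest in N0, 610 (21.4%) in N0_Zn and 583 (20.4%) in N0_Cd_Zn, against 11.8%, 26.6% and 15.6% of all genes compared. The choice of genes high in N0 fixes part of the first of these shares. It also bars N0_Cd, which was highest for 0 of the lower genes, so the other shares are not wholly free of the choice.

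Among genes with an arm code, the change was spread over all chromosomes. Gene identifiers carry the chromosome arm of the bread wheat assembly they were named on, and tetraploid wheat has no D subgenome. For single A and B chromosomes the higher share ran from 11.1% (6B, 191 of 1715 genes) to 14.7% (2B, 325 of 2207) and the lower share from 7.02% (5B, 149 of 2123) to 10.4% (1A, 186 of 1796). Genes with a D code, 823 in all, had 110 higher and 66 lower, or 13.4% and 8.02%, and genes with the code U 128 and 88 of 1158. D codes held 1.93% of the counts in N0_Cd and 1.91% in N0, and where such reads came from was not tested.

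Arms differed in balance. Arm 1AS had 81 higher and 36 lower of 470 genes, or 17.2% and 7.66%, the largest higher share of any arm with at least 200 genes compared. Arm 1BS was next but one, with 79 higher and 32 lower of 510 genes, or 15.5% and 6.27%, after 2BS with 147 and 63 of 929. Arm 1AL had 149 higher and 150 lower of 1326 genes, and its lower share of 11.3% was the largest of any such arm with a code. This near balance on 1AL turned with the scaling, to 157 higher and 136 lower by library totals. Arm 6BS was close to balance too, with 76 higher and 73 lower of 716 genes. In N2_Cd against N2, 1AL had 187 higher and 99 lower of 1354 genes, so its near balance was not seen at the raised supply. There 1AS had 70 higher and 51 lower of 496 genes, 1BS 79 and 43 of 528, 2BS 150 and 87 of 964, and 6BS 70 and 60 of 706.

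Loci without an arm code went against the rest. These have a serial number only, with no position in the files. Of 3699 compared, 227 (6.14%) were higher in N0_Cd and 518 (14.0%) lower, with a median log2 ratio of -0.31 against 0.03 for all other genes. The lower side led in every level class with 10 or more such loci, from 150 higher and 324 lower under 10 CPM to 3 and 7 between 100 and 300 CPM. Lower loci outnumbered higher ones under each scaling of counts, with 221 to 234 higher and 483 to 518 lower. In N2_Cd against N2 their median log2 ratio was -0.16 against 0.09 for the others, and in N2_Cd_Zn against N2_Zn 0.22 against -0.05. They took 7.24% of the counts in N0_Cd against 8.34% in N0, 6.49% in N2_Cd against 7.92% in N2, 7.45% in N0_Cd_Zn against 8.32% in N0_Zn, and 7.78% in N2_Cd_Zn against 6.87% in N2_Zn. The share was lower with Cd in 3 of the 4 pairs, and it was also lower with Zn alone at the raised supply, with 6.87% in N2_Zn against 7.92% in N2. In N2_Zn against N2 the median log2 ratio of these loci was -0.17 against 0.09 for the others, with 202 higher and 279 lower.

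**Figure D5:**
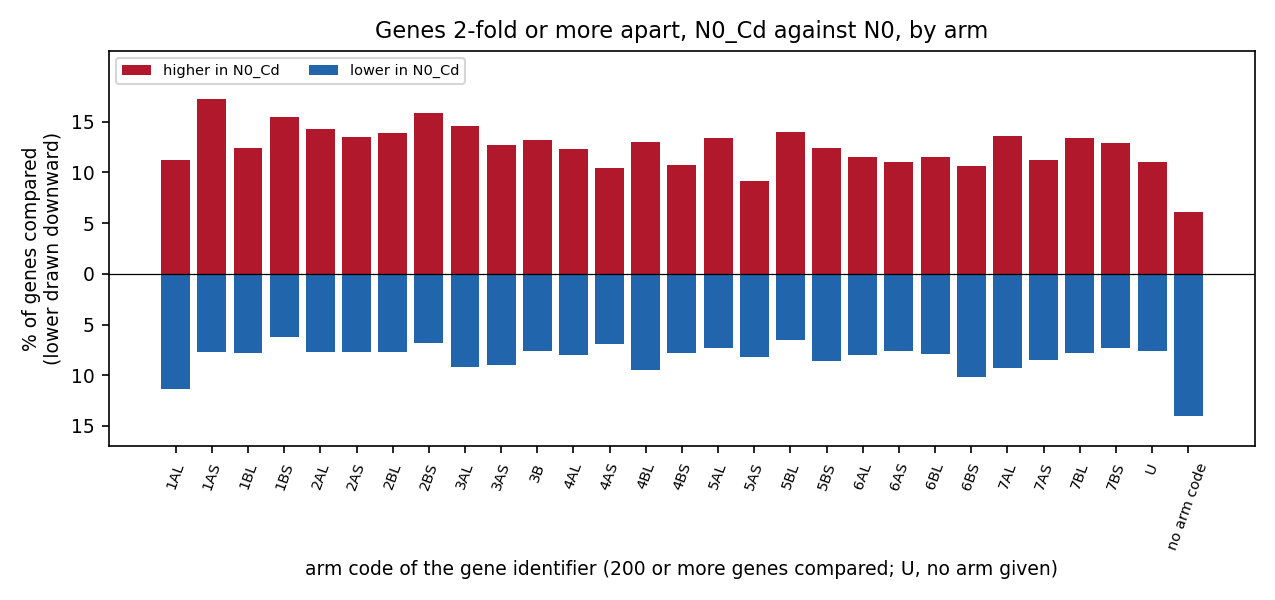
Percent of genes compared that were 2-fold or more higher (red, upward) or lower (blue, downward) in N0_Cd against N0, for each arm code with at least 200 genes; U marks identifiers with no arm given. Arm 1AS has the tallest upward bar (17.2%) and loci without an arm code the longest downward bar (14.0%).

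The nearest compared gene to a higher gene on its scaffold was higher more often than compared genes in general. Each compared gene was paired with the next compared gene by serial number on the same scaffold of the assembly, which gave 7724 pairs. Genes that were not compared can lie between the members of a pair, here called neighbours. Of the neighbours of a higher gene, 456 of 1922 (23.7%) were higher themselves, against 12.4% of all neighbours, and 107 (5.57%) were lower, against 7.37%. Of the neighbours of a lower gene, 154 of 1138 (13.5%) were lower, against 7.37%, and 107 (9.40%) higher. Whether neighbouring models share reads was not tested, and genes on 1 scaffold are not independent.

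Of 5631 scaffolds with 2 or more compared genes, 27 had 3 or more higher genes and 1 had 3 lower. Higher genes were also the larger share of all neighbours, 12.4% against 7.37% lower, so the counts of 27 and 1 are not on a like base. On 1 scaffold of arm 7AL all 4 compared genes were higher, with 17.9 to 237 CPM in N0_Cd against 1.90 to 41.6 CPM in N0, a change of 2.39-fold to 17.8-fold. Their summed level was 322 CPM in N0_Cd against 55.7 in N0, and 257 in N2_Cd against 332 in N2. All libraries with Zn were low, with sums of 5.46 in N0_Cd_Zn against 15.2 in N0_Zn, and 10.3 in N2_Cd_Zn against 9.74 in N2_Zn. On a scaffold of arm 2BS all 4 compared genes were also higher, with a sum of 52.0 CPM in N0_Cd against 18.9 in N0, and there 3 of 4 were 2-fold higher at the raised supply, with 94.1 CPM in N2_Cd against 23.9 in N2. Both scaffolds were singled out after their values were seen.

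Changed genes were shorter than the rest. The gene length recovered from the deposited values had a median of 1780 bp in the higher list and 1640.5 bp in the lower list, against 1890 bp over all genes compared. The 83 genes at 32-fold or more higher had a median of 1337 bp, and the 162 lower ones 1568 bp. The part of length in these results was not tested.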

How the data were processed

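Per the labels' protocols, Trizol was used for RNA extraction from roots and an Illumina TruSeq kit for the libraries, whereas the series' design text names SMRT-seq; which one gave the counts is not settled here. TopHat2 2.0.12 and Bowtie2 2.0.6 are listed in the submitters' processing notes. Not given in the sources used here are the genome build, the read counter with its strandedness, and any pooling of the 3 stated replicates. The authors deposited read counts per gene, and FPKM values that equal the count over gene length and column total (largest relative deviation 2.30e-14), which gave the lengths. Each of the 16 columns matched a treatment by name.

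TMM factors came from edgeR 4.0.16 in R 4.3.3 on the 64580 genes passing its low-count filter (minimum count 10, all 8 libraries). Log2 ratios used a prior count of 2. Intervals are exact binomial ones at 95% for counting error. With 1 library a side no test was fitted. The ratio step was tested on simulated data. DESeq2 1.42.0 supplied the alternative size factors. Of genes apart by 2-fold or more, the 20 with the largest CPM difference in each direction were described and the first 2 named, since the files do not pair identifiers with names. Members and lists were chosen with earlier results of these data known.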

Additional observations from a re-analysis of the deposited data

Results flagged for a closer look

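For each of the 4 named genes the log2 ratio with Cd differed in sign between the basal and the raised supply. The N2_Cd over N2 log2 ratio was -0.445 for TRIAE_CS42_4BS_TGACv1_327858_AA1076520 and -0.623 for TRIAE_CS42_4AL_TGACv1_290009_AA0980380, both higher in N0_Cd than in N0. It was 0.284 for TRIAE_CS42_4BS_TGACv1_327881_AA1077600 and 0.247 for TRIAE_CS42_4BL_TGACv1_320729_AA1047310, both lower in N0_Cd than in N0. Each pair holds 1 library a side, and the difference between supplies was not tested. All 4 ratios at the raised supply are smaller than 2-fold. By library totals they kept their signs, at -0.633 and -0.811 for the gains on 4BS and 4AL. For the losses on 4BS and 4BL they came to 0.0963 and 0.0592, which is almost no change.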

How the results depend on the processing

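The direction of the balance, more genes higher than lower in N0_Cd, held under every alternative run, with 51.5% (no minimum) to 62.2% (4-fold threshold) of changed genes higher. The number of higher genes was 7463 and of lower genes 6337 at a minimum of 1 CPM, 1393 and 1032 at 20 CPM, 11620 and 10927 with no minimum, and 1499 and 910 at a 4-fold threshold. Under every other alternative both numbers stayed within 1.5 times those reported. The share of the higher list also higher in N2_Cd against N2, reported as 41.6%, was 35.8% by library totals, 34.4% on log2(FPKM + 1), 35.6% on log2(FPKM + 0.1), 44.0% at a minimum of 1 CPM, 36.1% at 20 CPM and 28.5% with 4-fold required at both supplies. The share of the lower list, reported as 29.5%, was 35.8%, 31.6%, 33.1%, 42.4%, 14.9% and 34.0% in the same order, and 47.2% with no minimum. With 4-fold required at the basal supply and 2-fold at the raised supply the shares were 52.0% of the higher and 45.7% of the lower list. By library totals, the median log2 ratio of N2_Cd over N2 was -0.14, against 0.07 with TMM, so N2_Cd ratios are to be read relative to that shift. The setting with unequal thresholds, TMM without the low-count filter, and the other scalings of subgenome, arm and named-gene values, were added after seeing the data. No paired analysis was possible because N0_Cd against N0 is 1 library a side, and for the same reason no replicate could be left out. A fit over all 4 pairs with and without Cd would estimate an average over supplies and Zn, another comparison, and was not made. Counts near 0, which set the largest ratios, are limited by depth.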
